A study of Mus musculus with 33 samples.

Results

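The collagen genes of the mouse frontal cortex were taken as every gene of the expression table whose symbol has the form Col, a number, the letter a and a number, such as Col1a1. This rule gave 44 of 21565 genes, and it used no expression value. The table held RNA-seq libraries from 33 male adult mice of C57BL/6J background, aged 8 to 19 weeks and all collected at zeitgeber time (ZT) 6 hr. Wild-type (WT) mice had slept ad libitum (control sleep, CS, n = 6), had been kept awake for 6 hr (sleep deprivation, SD, n = 7), or had been kept awake for 4 hr and then allowed 2 hr of recovery sleep (RS, n = 7). Mef2c f/f mice carried loxP sites around exon 11 of Mef2c, the gene of the transcription factor MEF2C, on both alleles (CS n = 4, SD n = 3). Mef2c-cKO mice carried the same floxed alleles and a Camk2a-Cre transgene, whose CaMKII promoter is active in excitatory neurons of the forebrain (CS n = 3, SD n = 3). The Mef2c-cKO groups differed from Mef2c f/f both in the loss of exon 11 and in the transgene, and these cannot be told apart here. The study's methods also state that some Mef2c-cKO mice had lost exon 11 of 1 allele in the germline.

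Collagens are proteins of the extracellular matrix built from 3 chains wound into a triple helix. Each chain repeats a glycine followed by a pair of other amino acids, and the chains are made, hydroxylated, folded and trimmed before they assemble. Fibrillar collagens such as collagen I and III form the strong fibers of connective tissue, network collagens such as collagen IV form the sheet of basement membranes, and FACIT collagens bind to the surface of fibers. Beaded filament collagens (collagen VI) form fine filaments around cells, transmembrane collagens are anchored in the cell surface, and multiplexins lie in basement membranes. In brain, fibrillar collagens are mainly made by fibroblasts of the meninges and around vessels, basement membrane collagens by vascular cells, and several FACIT and transmembrane collagens by neurons.

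What the members shared in sequence was the coding of that repeat. In the GENCODE M21 annotation of GRCm38 (mm10), all 44 genes encoded a run of glycine-first repeats, the longest run spanning 23 to 344 repeats (median 58.5). A total of 39 genes had at least 1 exon of exactly 54 bases made only of whole repeats, and there were 452 such exons in all. The first such exon is shown for the genes on which the results below turn, because it encodes part of the run of repeats that the members share. Capitals mark the glycine codons.
Col1a1, exon 8, chr11:94939904-94939957, plus strand: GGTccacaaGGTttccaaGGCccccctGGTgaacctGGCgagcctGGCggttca
Col1a2, exon 8, chr6:4515481-4515534, plus strand: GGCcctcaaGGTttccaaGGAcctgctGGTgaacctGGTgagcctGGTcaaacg
Col3a1, exon 6, chr1:45325360-45325413, plus strand: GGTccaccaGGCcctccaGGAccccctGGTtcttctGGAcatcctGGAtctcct
Col9a2, exon 5, chr4:121043696-121043749, plus strand: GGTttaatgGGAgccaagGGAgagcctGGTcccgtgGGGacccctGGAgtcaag
Col19a1, exon 12, chr1:24461476-24461529, minus strand: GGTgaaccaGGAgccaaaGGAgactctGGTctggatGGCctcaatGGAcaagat
Col4a6, exon 13, chrX:141216444-141216497, minus strand: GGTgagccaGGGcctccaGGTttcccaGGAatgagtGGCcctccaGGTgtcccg
Col4a5, exon 7, chrX:141575988-141576041, plus strand: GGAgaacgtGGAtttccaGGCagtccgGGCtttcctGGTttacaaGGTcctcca
The fibrillar genes held many such exons (Col1a1 21, Col1a2 23, Col3a1 24), the FACIT genes Col19a1 and Col9a2 held 14 each, and the basement membrane genes held few (Col4a6 2, Col4a5 3). Reads of several members could thus resemble each other, but the study counted only reads that mapped to 1 place.

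Values began as CPM, the reads of a gene scaled to a fixed total of mapped reads per library. They were divided by 1 scaling factor per library (0.717 to 1.14) and are called rescaled CPM. Libraries held 18935045 to 249046089 reads, so that 3 reads, the limit that a count of 0 allows, came to at most 0.153 CPM; this covers counting error only. The WT tables and those of the Mef2c mice did not list the same genes, since 588 genes with a mean of at least 1 in WT were under 0.05 in the Mef2c mice and 15 the reverse, none of them a collagen, so levels were not compared between WT and Mef2c mice. Markers of excitatory neurons (sum 1502 to 2329) and of astrocytes (2998 to 5685) were present in every library. Mef2c RNA over the whole gene was 955 to 1724 in Mef2c-cKO CS against 1079 to 1205 in Mef2c f/f CS, which does not check a deletion of exon 11 alone. Several libraries stood apart in marker sums: WT CS replicate 1 and Mef2c-cKO CS replicate 5 in choroid plexus markers (196 and 322, against 4.0 to 67.7 in the other 31), and Mef2c-cKO CS replicate 8 in microglia markers (548 against 154 to 241 in the others).

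Per kilobase of transcript and averaged over the 33 libraries, the highest collagen RNAs were those of Col19a1 and Col25a1. Col19a1, a FACIT collagen known from subsets of cortical neurons, stood at 18.0 rescaled CPM per kb (10.05 to 40.5 over libraries). Col25a1, a neuronal transmembrane collagen, followed at 14.6 (8.39 to 19.998), and the ranges overlapped. Their order differed between groups: by group mean Col19a1 was the higher in WT CS (29.0 against 17.8), WT RS and both Mef2c f/f groups, and Col25a1 was the higher in WT SD (14.8 against 14.3), Mef2c-cKO CS (13.4 against 10.98) and Mef2c-cKO SD (16.2 against 10.9). Next came Col6a1, a chain of collagen VI, at 10.4, and Col4a2 and Col4a1, the main chains of vascular basement membrane, at 8.07 and 7.22. The fibrillar chains were lower and more variable: Col1a2 stood at 2.62 (0.517 to 5.23), Col1a1 was the 19th of 44 at 1.17 (0.145 to 3.46), and Col3a1 the 25th at 0.826. Col4a6, another collagen IV chain, ranged from 0.169 to 16.1. At the bottom stood Col4a4 at 0.0456, Col6a5 at 0.067 and Col4a3 at 0.076.

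**Figure D1:**
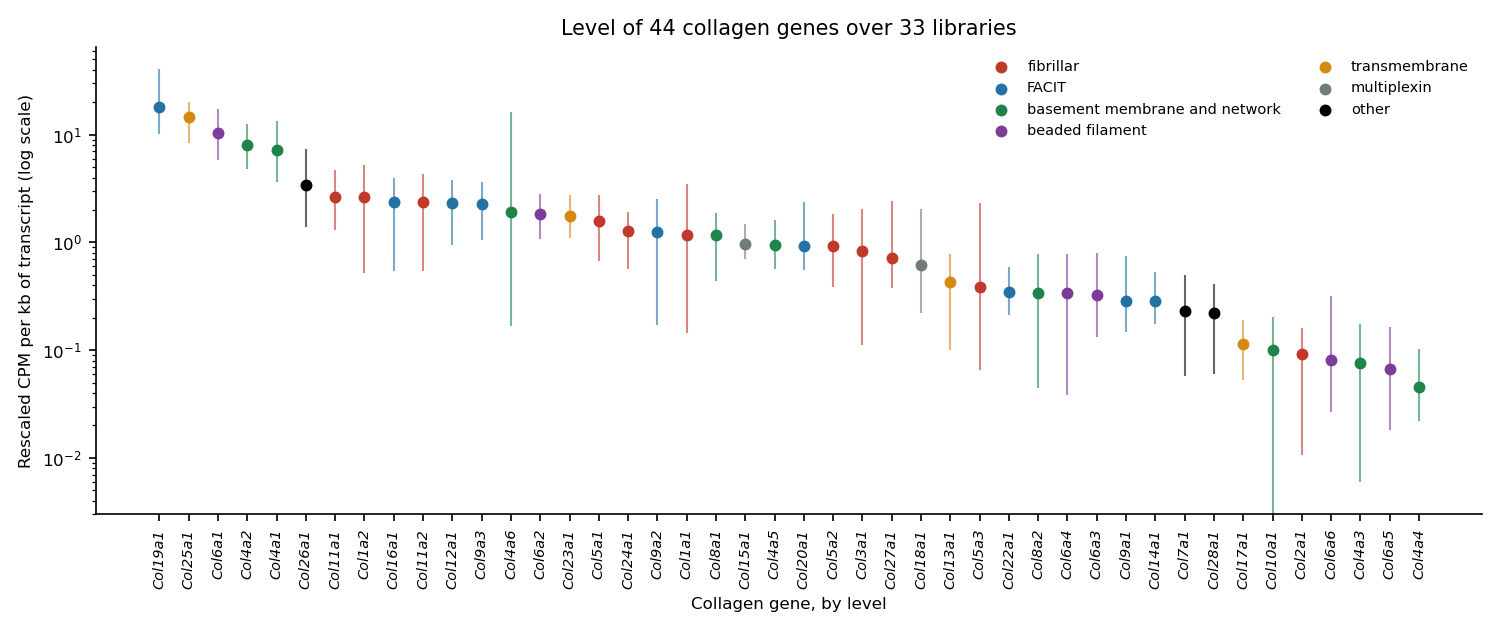
Level of each of the 44 collagen genes, in rescaled CPM per kb of transcript on a log axis, with a dot for the mean over 33 libraries and a line from the lowest to the highest library, colored by class. Col19a1 and Col25a1 stand highest (means 18.0 and 14.6), and the line of Col10a1 runs to the lower end of the axis because 2 libraries list it at 0.

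A mean CPM of at least 0.5 over all libraries was reached by 41 of the 44 members and by 13980 genes in all, and only these were tested. Col10a1, Col2a1 and Col4a4 were not tested. Col10a1, a network collagen of growth plate cartilage, had a median of 0.378 in WT CS and 0.54 in WT SD, Col2a1, the main fibrillar collagen of cartilage, 0.389 and 0.616, and Col4a4, a basement membrane chain, 0.55 and 0.383. Of these, Col10a1 was listed at 0 in 2 libraries. A gene was called differentially expressed (DEG) at a limma adjusted p of 0.05 or less, adjusted over all 13980 genes, and a log2 fold change of at least 0.3 in size. Fold changes are on the scale of log2(rescaled CPM + 0.5), which understates the change of low genes. The p-values measure the spread between these mice, and in whole cortex fewer cells of a type and less RNA per cell cannot be told apart.

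The first comparison asked which genes differ after sleep loss in WT mice. From CS to SD, 19 of 41 collagen genes were DEGs (46.3%), 13 higher and 6 lower, against 43.5% of all genes tested (24.1% higher and 19.3% lower). The share of collagen genes was thus close to that of all genes, and their median log2 fold change was 0.30 against 0.05 for all. The fibrillar chains of collagen I and III, the chains of skin, bone and vessel wall, had the most positive values, and the neuronal FACIT chain Col19a1 the most negative.

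Col1a1, on chromosome 11 (94936224-94953042, plus strand), encodes the first chain of collagen I. Its lowest, median and highest rescaled CPM were 0.86, 1.73 and 4.51 in CS and 5.03, 11.4 and 20.5 in SD. Every SD library was above every CS library. The mean rose from 2.25 ± 1.46 (SD, n = 6) to 13.2 ± 5.91 (n = 7), a 5.07-fold change (log2 2.34, SE 0.36, adjusted p = 0.000782). Among the 13980 genes this was the 16th highest log2 fold change. Col1a2, on chromosome 6 (4504814-4541544, plus strand), encodes the partner chain of collagen I. It ranged from 2.76 to 9.69 in CS (median 6.9) and from 14.7 to 28.0 in SD (median 23.5), again with no overlap. Its rise was 3.39-fold (log2 1.76, SE 0.26, adjusted p = 0.000641), the 43rd highest of all genes. Col3a1, the chain of collagen III, lies on chromosome 1 (45311538-45349706, plus strand) and rose 2.76-fold (log2 1.46, SE 0.28, adjusted p = 0.00222). It ran from 0.617 to 3.8 in CS (median 2.22) and from 3.52 to 9.64 in SD (median 6.56), so the highest CS library was just above the lowest SD library.

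The other fibrillar genes did not move together. Col11a1, a minor chain that sets fiber width, fell from 28.0 to 19.7 (log2 -0.52, adjusted p = 0.015), and Col24a1, another minor chain, fell from 12.2 to 8.65 (log2 -0.52, adjusted p = 0.0243). The remaining 5 tested fibrillar genes, Col5a1, Col5a2, Col5a3, Col11a2 and Col27a1, did not pass the test, with log2 values from 0.30 to 0.73. Their adjusted p ran from 0.062 for Col5a2 to 0.205 for Col5a1.

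Among the FACIT genes, Col9a2 and Col20a1 were higher and Col19a1 and Col14a1 lower, with 5 of 9 not called. Col9a2, a chain of cartilage collagen IX on chromosome 4 (121039385-121055322, plus strand), ranged from 0.499 to 2.94 in CS (median 2.05) and from 3.2 to 7.42 in SD (median 6.28). The groups did not overlap, and the log2 fold change was 1.31 (SE 0.27, adjusted p = 0.0033). Col20a1 rose less, from 3.73 to 5.06 (log2 0.40, adjusted p = 0.0092). Col19a1, on chromosome 1 (24261890-24587472, minus strand), had 100, 116 and 173 as its lowest, median and highest value in CS and 50.6, 59.9 and 77.8 in SD. Here too the groups did not overlap, and the mean fell from 124 ± 26.0 to 61.2 ± 11.02, a 2.01-fold decrease (log2 -1.01, SE 0.14, adjusted p = 0.000508). Col14a1, which binds fibers in skin and tendon, fell from 1.96 to 1.46 (log2 -0.32, adjusted p = 0.028). That call was lost without any 1 of WT CS replicates 1 or 2 or WT SD replicates 2 or 9 (adjusted p 0.0509 to 0.0636).

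Of the 7 basement membrane and network genes tested, Col8a2 and Col4a6 were higher and Col4a3 lower. Col8a2, a network chain of the cornea, rose from 0.595 ± 0.497 to 2.38 ± 0.792 (log2 1.43, SE 0.25, adjusted p = 0.00141). One CS library, replicate 1, held 1.58, inside the SD range of 0.945 to 3.39. The same library stood apart in choroid plexus markers, and their part in this value was not tested. Col4a6 rose from 2.55 ± 0.831 to 3.88 ± 0.729 (log2 0.55, adjusted p = 0.0226), with overlapping groups. Col4a3, a chain best known from kidney basement membrane, fell from 0.827 to 1.5 in CS to 0.275 to 0.75 in SD, with no overlap (log2 -0.48, adjusted p = 0.0119). The abundant vascular chains Col4a1 and Col4a2 were not called, with log2 values of 0.33 (adjusted p = 0.246) and 0.14 (adjusted p = 0.453).

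Of the 6 collagen VI genes, Col6a2 and Col6a3 were higher. Col6a2, on chromosome 10 (76595762-76623630, minus strand), ranged from 5.05 to 7.93 in CS (median 5.92) and from 8.96 to 13.1 in SD (median 10.2). These ranges did not overlap, and the log2 fold change was 0.73 (SE 0.12, adjusted p = 0.00121). Col6a3 rose from 2.26 to 3.46 (log2 0.54, adjusted p = 0.0141). Col6a1, whose chain assembles with those of Col6a2 and Col6a3, had a log2 value of 0.19 and was not called (adjusted p = 0.386). Of the others, the transmembrane genes Col13a1 (0.899 to 2.00, log2 0.89, adjusted p = 0.00313) and Col23a1 (8.70 to 11.8, log2 0.43, adjusted p = 0.0279) were higher. So were Col7a1, the anchoring fibril collagen of skin (log2 0.84, adjusted p = 0.0198), and the multiplexin Col18a1 (log2 0.60, adjusted p = 0.0341). Col28a1 fell from 1.33 to 0.713 (log2 -0.60, adjusted p = 0.00907). The neuronal gene Col25a1 had an adjusted p of 0.028 but a log2 value of -0.27, under the size limit. The call of Col18a1 was lost in 8 of 13 fits that each left out 1 library, those without WT CS replicates 1, 3 or 4 or WT SD replicates 2, 4, 6, 8 or 9 (adjusted p 0.0527 to 0.0793), and that of Col23a1 without WT CS 3 or WT SD 8 or 9 (0.0507 to 0.0668). The other 16 calls passed in 13 of 13.

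**Figure D2:**
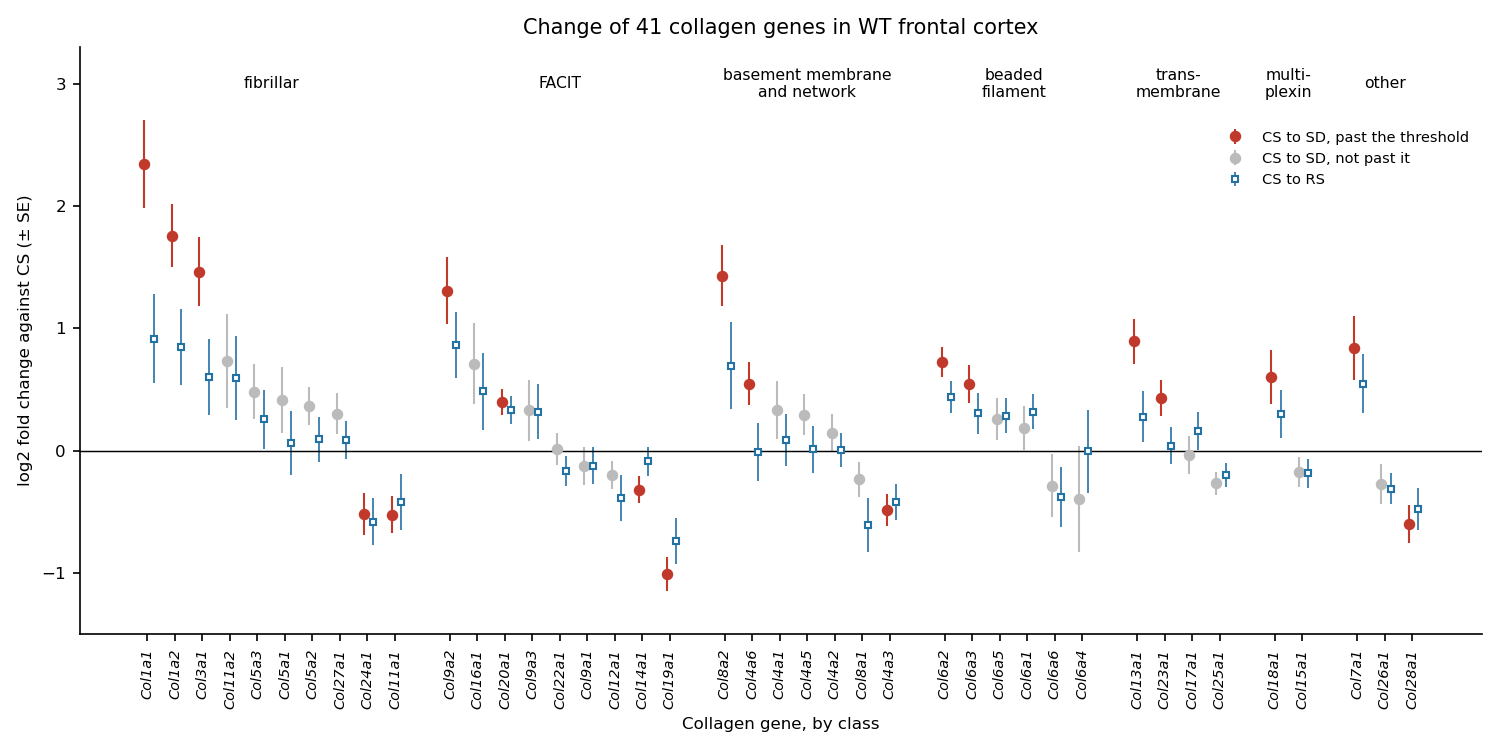
Log2 fold change from CS to SD in WT mice for the 41 tested collagen genes, grouped by class, with bars of 1 standard error; red points are DEGs, grey points are not, and open blue squares give CS to RS. The largest rises are those of Col1a1 (2.34), Col1a2 (1.76) and Col3a1 (1.46), and the largest fall is that of Col19a1 (-1.01).

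Taken by separation of the groups, 6 members had no overlap between CS and SD, Col1a1, Col1a2, Col9a2 and Col6a2 upward and Col19a1 and Col4a3 downward. That is 14.6% of the members, against 14.3% of all genes (4.6% upward and 9.71% downward). The split between higher and lower depended on scaling and on base composition. On CPM as deposited, without the scaling factors, 21 collagen genes were called, 19 higher and 2 lower, against 52.4% of all genes, and the median of all genes was itself shifted to 0.30 on the log2 scale. Tested collagen transcripts were rich in G and C (median 55.7% against 50.2% for all) and long (median 6048 against 3292 bases), and across all genes GC content ran with the CS to SD log2 fold change (Spearman rho 0.717; 0.613 over the 41 members, which share the same libraries). With the trend on GC content and length removed, 16 were called, 7 higher and 9 lower, against 19.4% of all genes with an annotation. Of these, 6 of the higher and 5 of the lower were also called in that direction without that step. Col1a1 (1.92), Col1a2 (1.47), Col3a1 (1.36), Col8a2 (0.95), Col9a2 (0.65) and Col6a2 (0.39) remained higher after that step, and Col19a1 (-1.11) remained lower. Whether RNA quality or library preparation had a part in the trend was not tested.

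**Figure D3:**
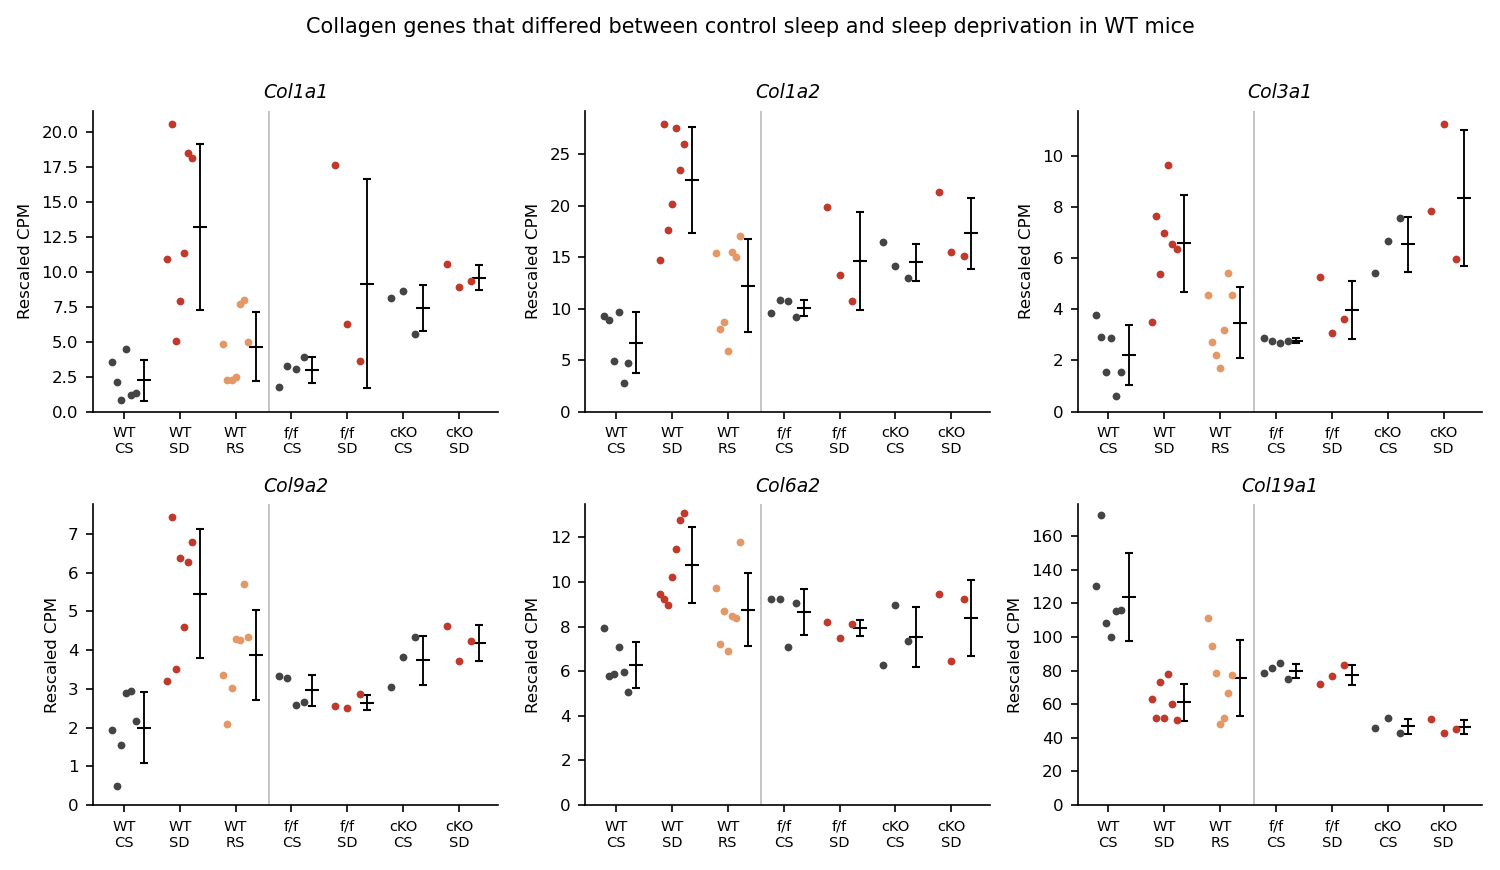
Rescaled CPM of Col1a1, Col1a2, Col3a1, Col9a2, Col6a2 and Col19a1 in each of the 33 libraries, by genotype and sleep group, on linear axes from 0, with the mean and 1 SD per group. In WT the SD points of Col1a1 (5.03 to 20.5) lie above the CS points (0.86 to 4.51) and those of Col19a1 (50.6 to 77.8) below (100 to 173), while in Mef2c f/f mice Col19a1 runs from 74.8 to 84.8 in CS and from 72.0 to 83.6 in SD.

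Markers of meningeal fibroblasts also differed between WT CS and SD, in the direction of Col1a1, Col1a2 and Col3a1. The summed level of 19 such markers was 43.8 to 163 in WT CS and 142 to 206 in WT SD, with Foxc2 and Igf2 at or near 0. Igf2 was at most 0.007 in WT but 9.90 to 50.3 in the Mef2c mice. Its 0 in WT cannot be told apart from how the tables were listed. Of the 18 tested, Igf2 among them, 11 were higher in SD and none was lower, beside 24.1% higher and 19.3% lower of all genes. The median log2 value of the markers was 0.99. Those called were the transporters Slc47a1 (1.84), Slc13a4 (1.75), Slc22a6 (1.74) and Slc6a13 (1.44), the matrix genes Fmod (1.54), Islr (1.54) and Mgp (1.42), and Aldh1a2 (1.52), Crabp2 (0.95), Igfbp2 (0.91) and Foxd1 (0.75). Among those not called were Dcn, Lum, Ogn, Gjb2, Moxd1 and Slc22a8, Dcn with a log2 value of 0.19. WT CS replicate 1 had a marker sum of 163, inside the SD range, and a Col1a1 level of 3.54, below every SD library. This library also stood apart in choroid plexus markers (196), whose part in its fibroblast marker sum was not tested. Without WT CS replicates 5 and 6, in which the sum was lowest (43.8 and 47.8), 23 collagen genes were called, against 53.1% of all genes, among them 17 of the 19 (not Col23a1 and Col4a6). Blood markers moved too, with sums of 28.2 to 118 in CS and 97.8 to 285 in SD and 5 of 5 called higher. Of 5 smooth muscle markers, 3 were called higher and 0 lower, with overlapping sums of 23.5 to 52.3 in CS and 35.2 to 64.2 in SD. Pericyte markers were called for 2 higher and 1 lower of 9, and endothelial markers for 1 higher and 3 lower of 10. The part of meningeal tissue, of vessel cells or of blood in the collagen values was not tested.

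Within each WT group, Col1a1 was set against the fibroblast marker sum, giving 3 relations tested by exact two-sided permutation. In CS Pearson's r was 0.711 (n = 6, exact permutation p = 0.126, Benjamini-Hochberg adjusted 0.190) and Spearman's rho 0.657 (p = 0.175). In SD r was 0.320 (n = 7, exact permutation p = 0.507) and rho was 0.000. In RS r was 0.743 (n = 7, exact permutation p = 0.030, adjusted 0.089) and rho 0.857 (p = 0.024, adjusted 0.071). Leaving out the pair of libraries farthest from the median sum gave r = 0.638, -0.653 and 0.809 in CS, SD and RS. None of the 3 relations passed after adjustment, and in SD the sign rested on those libraries.

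**Figure D4:**
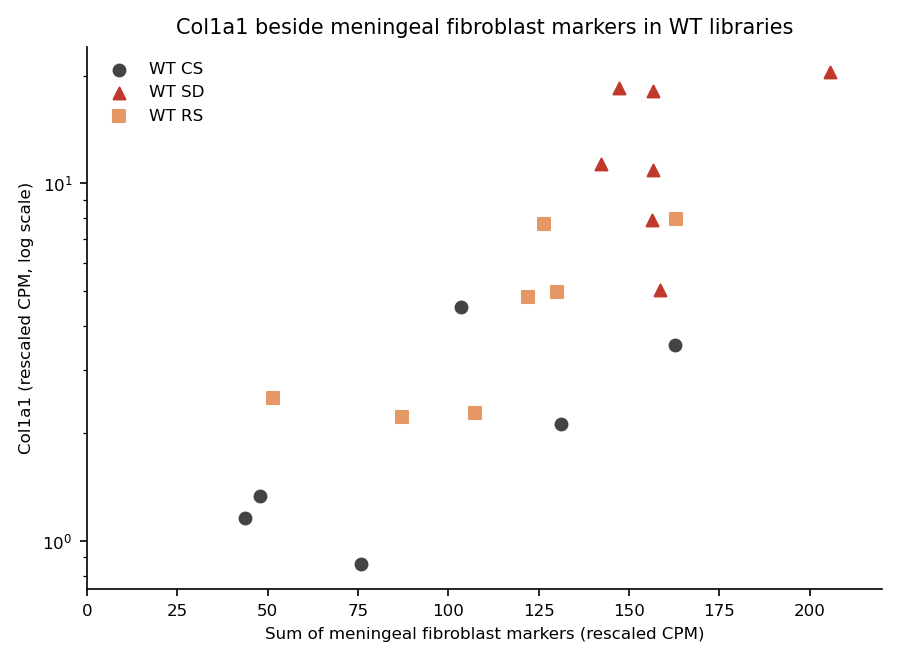
Rescaled CPM of Col1a1 (log axis) against the sum of the meningeal fibroblast markers in each of the 20 WT libraries, colored by sleep group. The SD libraries lie at sums of 142 to 206 and Col1a1 levels of 5.03 to 20.5, and 1 CS library shares that range of sums (163) with a Col1a1 level of 3.54. That CS library, replicate 1, also stood apart in choroid plexus markers (196).

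The proteins that make, bind and break down collagens are encoded by other genes, which were followed as 6 lists. Of 19 genes of collagen hydroxylation and folding, 10 were higher and 2 lower in WT SD. Serpinh1, the chaperone of procollagen, rose from 6.28 to 15.2 (log2 1.21), and the foldase gene Fkbp10 (0.74) and P3h4 (0.66) rose, while the prolyl hydroxylase gene P3h2 fell (-0.69). Of 11 genes of trimming and crosslinking, 6 were higher and 1 lower, led by Loxl1, a crosslinking oxidase (0.504 to 2.26, log2 1.45), Pcolce, an enhancer of propeptide cleavage (1.18), the transglutaminase gene Tgm2 (1.05) and the propeptidase gene Adamts2 (0.69). Of 10 receptors, 5 were higher and 4 lower. Mrc2, an uptake receptor for collagen, rose from 3.23 to 8.84 (log2 1.33) and the integrin genes Itga11 (0.90) and Itga10 (0.80) rose, while Adgrg6, an adhesion receptor of collagen IV, fell from 16.6 to 7.56 (log2 -1.04). Of 10 breakdown genes, 6 were higher and 1 lower, the metalloproteinase genes Mmp14 (0.71) and Mmp15 (0.55) and the inhibitor gene Timp4 (0.53) rising and Mmp16 falling from 520 to 299 (log2 -0.77). Of 14 fibril partners, 7 were higher and 1 lower, among them Fmod, also a fibroblast marker, and Thbs1 (1.08), Tnxb (1.08) and Fn1 (0.99). Of 12 other basement membrane genes, 6 were higher and 2 lower, the largest changes being those of Lamc3 (1.13), Lamb2 (1.06), Hspg2 (1.04) and Lama1 (0.81). In all, 51 of these 76 genes were called (67.1%), beside the 43.5% of all genes. These lists and the fibroblast markers were not counted with the trend on GC content and length removed, a step after which 19.4% of all genes were called.

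The next comparisons addressed recovery sleep. RS mice had been kept awake for 4 hr and SD mice for 6 hr, so between them recovery sleep and the shorter deprivation cannot be told apart. From CS to RS, 3 of 41 collagen genes were DEGs, 2 higher and 1 lower, against 14.2% of all genes (7.42% higher and 6.83% lower). DESeq2 called 10, 5 higher and 5 lower, against 24.8%. Col9a2 rose from 2.00 to 3.87 (log2 0.87, SE 0.27, adjusted p = 0.0463), Col6a2 rose from 6.29 to 8.75 (log2 0.44, SE 0.13, adjusted p = 0.0426) and Col19a1 fell from 124 to 75.6 ± 22.6 (log2 -0.74, SE 0.19, adjusted p = 0.0366). In all 3 the groups overlapped, as Col19a1 ran from 48.0 to 112 in RS. No member had separate groups, against 3.56% of all genes. The medians of the collagen I and III genes in RS lay between those in CS and SD. Col1a1 had a lowest, median and highest value of 2.23, 4.82 and 7.95, Col1a2 of 5.92, 15.0 and 17.0, and Col3a1 of 1.7, 3.2 and 5.44. Their log2 values against CS were 0.92 (adjusted p = 0.0745), 0.85 (adjusted p = 0.0615) and 0.60 (adjusted p = 0.139), and none was a DEG. Over the members the median log2 value was 0.09, against 0.03 for all genes. GC content ran with the CS to RS change too (Spearman rho 0.705 over all genes, 0.646 over the members). With the trend on GC content and length removed, 0 members were called higher and 3 lower, against 4.92% of all genes with an annotation. The median of the members was then -0.13. Col9a2 and Col6a2 were no longer called, and Col19a1 remained lower. Without that step, the 3 calls were lost without any 1 of WT CS replicates 1, 2 or 3 or WT RS replicates 3, 4, 5, 6 or 12, each of which left 0 collagen DEGs (adjusted p of Col19a1 0.0547 to 0.0797). Fibroblast markers had sums of 51.5 to 163 in RS.

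From SD to RS, limma called 0 of 41 collagen genes and 0.0215% of all genes. At an unadjusted p of 0.05 there were 10 of 41 members, beside 782 of all 13980 genes. edgeR also called 0, and DESeq2 called 3, Col1a1, Col1a2 and Col13a1, all lower in RS, against 0.422% of all genes. The limma log2 values were -1.43 for Col1a1 (SE 0.34, adjusted p = 0.236), -0.91 for Col1a2 (SE 0.23, adjusted p = 0.282) and -0.62 for Col13a1 (SE 0.13, adjusted p = 0.190). That of Col1a1 was the lowest of all 13980 genes. These 3 WT comparisons share groups and are not independent of each other. In the lists, from CS to RS, 2 genes of hydroxylation and folding were higher and 1 lower, 2 and 1 of trimming and crosslinking, 4 and 1 of the receptors, 2 and 1 of breakdown, 1 and 0 of the fibril partners, and 2 and 0 of the other basement membrane genes, in all 17 of 76 (22.4%) beside 14.2% of all genes.

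In Mef2c f/f mice, limma called 0 of 41 collagen genes and 0% of all genes from CS to SD, with 5 members at an unadjusted p of 0.05. edgeR and DESeq2 called 0 members too, while over all genes they called 0.0358% and 3.22%. Col1a1 read 1.73, 3.28, 3.03 and 3.94 in the 4 CS libraries and 17.6, 6.26 and 3.59 in the 3 SD libraries, so 1 SD library lay within the CS range (log2 1.23, SE 0.53, adjusted p = 0.327). Col1a2 had a log2 value of 0.48, Col8a2 of 0.44, Col3a1 of 0.42 and Col19a1 of -0.04. In Mef2c-cKO mice limma again called 0 members, against 0.00715% of all genes, with 2 members at an unadjusted p of 0.05 and 0 by edgeR and DESeq2, which called 0.0215% and 0.172% of all genes. Col1a1 read 8.09, 8.62 and 5.53 in CS and 10.6, 8.89 and 9.32 in SD (log2 0.37). The difference between the SD responses of Mef2c-cKO and Mef2c f/f mice was called for 0 members by limma, edgeR and DESeq2 (0.00715%, 0.00715% and 0.408% of all genes), with 4 at an unadjusted p of 0.05. These groups held 3 or 4 mice each, against 6 and 7 in WT. The counts at an unadjusted p in this paragraph stand without the share of all genes and were not read as a result.

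The SD responses of Mef2c f/f and WT mice were then compared directly, with both fold changes in 1 fit. The difference passed for 8 of 41 members, against 13.7% of all genes (8.33% positive and 5.35% negative). It was negative for Col9a2 (-1.44, adjusted p = 0.0312), Col1a2 (-1.28, adjusted p = 0.041), Col13a1 (-0.97, adjusted p = 0.0353) and Col6a2 (-0.84, adjusted p = 0.0192). Of these, only Col1a2 had a smaller rise in Mef2c f/f. The means of the others were slightly lower in Mef2c f/f SD than in CS (Col9a2 2.64 against 2.96, Col13a1 1.29 against 1.40, Col6a2 7.94 against 8.66). It was positive for Col19a1 (0.96, adjusted p = 0.0175), Col11a1 (0.78, adjusted p = 0.0455), Col12a1 (0.58, adjusted p = 0.0431) and Col25a1 (0.55, adjusted p = 0.0294). For Col1a1 it was -1.11 and was not called (adjusted p = 0.185). With the trend on GC content and length removed only Col19a1 passed (1.13, adjusted p = 0.0143), against 2.13% of all genes, and without Mef2c f/f SD replicate 3 none passed. Summed fibroblast markers other than Igf2 were 104 to 113 in Mef2c f/f CS and 99.3 to 114 in SD, where the WT sums differed. Of 18 fibroblast markers, 4 passed in this comparison, all negative. Blood markers passed for 5 of 5, all negative, with a median difference of -2.62: their sums were 123 to 182 in Mef2c f/f CS and 56.3 to 105 in SD, and in WT they were higher in SD. The part of either in the collagen differences was not tested. The 2 sets of mice also differ in how their tables were listed, which cannot be told apart from genotype here.

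The last comparisons set Mef2c-cKO against Mef2c f/f mice. In CS, 8 of 41 collagen genes were DEGs, 6 higher and 2 lower in Mef2c-cKO, against 4.77% of all genes (2.03% higher and 2.74% lower). In SD there were 10, 7 higher and 3 lower, against 9.31% (5.62% higher and 3.7% lower). DESeq2 called 16 in CS and 18 in SD, against 15.5% and 16.7% of all genes. The median log2 value of the members was 0.40 in CS and 0.34 in SD, against 0.02 and 0.01 for all genes. Groups did not overlap for 17 members in CS (41.5%) and 25 in SD (61.0%), against 25.3% and 38.2% of all genes. Col4a6, Col5a2 and Col6a5 were higher and Col19a1 and Col26a1 lower in both states. The CS and SD comparisons use different mice.

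The largest difference was that of Col4a6, on chromosome X (141165403-141474076, minus strand), which encodes a collagen IV chain of basement membranes in smooth muscle and epithelia. The Mef2c f/f libraries read 2.89, 2.18, 3.80 and 2.76 in CS and 3.24, 2.11 and 2.21 in SD. The Mef2c-cKO libraries read 27.9, 40.5 and 37.6 in CS and 92.4, 107 and 38.5 in SD. Every Mef2c-cKO library was thus far above every Mef2c f/f library. The log2 fold change was 3.40 in CS (SE 0.21, adjusted p = 0.00263, 10.5-fold) and 4.62 in SD (SE 0.43, adjusted p = 0.00867, 24.5-fold), the 7th highest of all genes in each. Both calls passed in every fit that left out 1 library. From CS to SD within Mef2c-cKO the log2 value was 1.04 (SE 0.43) and was not called, and the difference of the SD responses was 1.22 (adjusted p = 0.572).

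Col4a6 starts 1308 bases from Col4a5 (X, 141475385-141689234, plus strand), the pair lying head to head. Col4a5, whose chain joins that of Col4a6 in a triple helix, read 3.73 to 5.96 in Mef2c f/f CS and 5.32 to 8.53 in Mef2c-cKO CS. Those ranges overlapped, and its log2 value of 0.52 was not called (adjusted p = 0.186), nor was that of 0.31 in SD (adjusted p = 0.126). The promoter windows of RefSeq on GRCm38.p6, 300 bases around each start, are shown because the genes start side by side and only 1 of them was called. Capitals mark matches to CCAAT or GGGCGG on either strand, and neither window held a match to TATAAA or to the MEF2 motif.
Col4a6, chrX:141474027-141474326, minus strand: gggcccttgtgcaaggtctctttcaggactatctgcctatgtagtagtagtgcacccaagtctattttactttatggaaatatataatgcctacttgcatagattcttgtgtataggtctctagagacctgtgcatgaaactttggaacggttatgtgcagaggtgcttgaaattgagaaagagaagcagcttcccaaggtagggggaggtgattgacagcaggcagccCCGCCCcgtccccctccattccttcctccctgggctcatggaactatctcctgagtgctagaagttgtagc
Col4a5, chrX:141475169-141475468, plus strand: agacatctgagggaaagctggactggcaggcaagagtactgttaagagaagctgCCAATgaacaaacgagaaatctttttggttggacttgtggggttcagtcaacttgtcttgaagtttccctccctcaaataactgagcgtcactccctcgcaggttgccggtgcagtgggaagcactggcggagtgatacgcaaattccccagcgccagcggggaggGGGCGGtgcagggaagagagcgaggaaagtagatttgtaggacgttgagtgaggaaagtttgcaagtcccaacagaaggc
Promoter windows were held for 35 of the 44 members (38 windows), and Col1a1 was not among them. GGGCGG matched 60.5% of the member windows and 35.7% of all 32851 windows, CCAAT 34.2% and 37.4%, TATAAA 13.2% and 13.6%, and the MEF2 motif 2.63% and 3.19%. The single MEF2 match, at Col13a1, overlapped a TATAAA match. A match or its lack in 300 bases says nothing of binding.

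Of 9 genes within 600 kb of Col4a6, itself among them, 6 others were tested. None of the 6 was called by limma in CS, and 1 was in SD, Tsc22d3 (log2 -0.44, adjusted p = 0.0182). Psmd10 and Atg4a, the nearest to the body of Col4a6 beside Col4a5, had log2 values of -0.29 and -0.04 in CS and 0.23 and -0.09 in SD. By distance between starts Irs4 was nearer, at 251 kb, with log2 values of -0.08 in CS and -0.005 in SD. Psmd10, Atg4a and Irs4 were named after their values were seen.

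Col19a1 was lower in Mef2c-cKO. It read 78.5, 81.4, 84.8 and 74.8 in Mef2c f/f CS and 46.1, 51.6 and 42.9 in Mef2c-cKO CS. In SD it read 72.0, 77.1 and 83.6 against 51.0, 43.0 and 45.2. The groups were well apart in both states, with log2 values of -0.77 (SE 0.07, adjusted p = 0.0102) and -0.74 (SE 0.09, adjusted p = 0.0147). Without Mef2c f/f CS replicate 2 the first adjusted p was 0.0507, and without Mef2c-cKO SD replicate 7 or Mef2c f/f SD replicate 3 the second was 0.0505 or 0.0533.

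Col26a1, a small secreted collagen encoded on chromosome 5 (136741759-136883209, minus strand), was lower as well. It read 15.3, 20.4, 13.7 and 14.2 in Mef2c f/f CS and 7.76, 6.997 and 3.86 in Mef2c-cKO CS (log2 -1.33, SE 0.27, adjusted p = 0.046). In SD it read 15.4, 13.4 and 13.1 against 4.90, 4.11 and 4.88 (log2 -1.498, SE 0.11, adjusted p = 0.00547). The groups were apart in both states, and the SD call passed in all 6 fits that left out 1 library. The CS call was lost whichever library was left out (adjusted p 0.0658 to 0.118, log2 -1.504 to -1.04).

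Col5a2, a fibrillar chain that nucleates collagen I fibers, lies on chromosome 1 (45374321-45503282, minus strand) and was higher in Mef2c-cKO. It read 4.43, 4.19, 4.25 and 2.56 in Mef2c f/f CS and 7.33, 10.4 and 11.7 in Mef2c-cKO CS (log2 1.25, SE 0.24, adjusted p = 0.0412). In SD its mean was 4.55 in Mef2c f/f and 9.49 in Mef2c-cKO (log2 0.97, adjusted p = 0.0433). Neither pair of groups overlapped, but the CS call was lost whichever library was left out (adjusted p 0.0533 to 0.129) and the SD call in 5 of 6. Col3a1, its neighbor at 24614 bases tail to tail, was higher in CS, from 2.78 to 6.55 (log2 1.09, SE 0.12, adjusted p = 0.0116), a call lost without Mef2c-cKO CS replicate 7 or Mef2c f/f CS replicate 2 (0.0609 and 0.0512). Col6a5, a low collagen VI chain, was higher in both states, 0.362 against 1.25 in CS (log2 1.03, adjusted p = 0.0222) and 0.349 against 1.30 in SD (log2 1.06, adjusted p = 0.0249). Its mean CPM over all libraries was 0.645, near the limit of 0.5 for testing, and its means outside Mef2c-cKO were 0.349 to 0.592. Col6a5 thus passed that limit only through the Mef2c-cKO libraries, the group in which it was high. Its call held in 11 of 15 other settings in CS and in 9 of 13 in SD.

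Other members passed in 1 state. In CS these were Col9a3 (4.06 against 9.23, log2 1.09, adjusted p = 0.0157) and Col9a1 (0.9998 against 2.31, log2 0.90, adjusted p = 0.0404), both chains of collagen IX. In SD, Col6a3 (2.52 against 6.30, log2 1.15, adjusted p = 0.0421), Col6a1 (26.2 against 45.2, log2 0.77, adjusted p = 0.0186), Col9a2 (log2 0.57, adjusted p = 0.0264) and Col7a1 (log2 0.55, adjusted p = 0.0244) were higher. Col8a1, a network chain of vessel walls, was lower in SD, at 8.64, 7.37 and 7.30 in Mef2c f/f against 4.04, 2.70 and 3.52 (log2 -1.09, SE 0.16, adjusted p = 0.0201). A call in 1 state only does not show that the states differ, as the test of that difference called 0 members. The number of collagen DEGs fell to between 2 and 6 in CS and lay between 2 and 11 in SD when 1 library was left out, and without Mef2c-cKO CS replicates 5 and 8 none was called in CS. Replicate 8 also had the highest Col6a3 of the Mef2c-cKO libraries (8.06), and its part and that of its microglia markers was not tested.

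**Figure D5:**
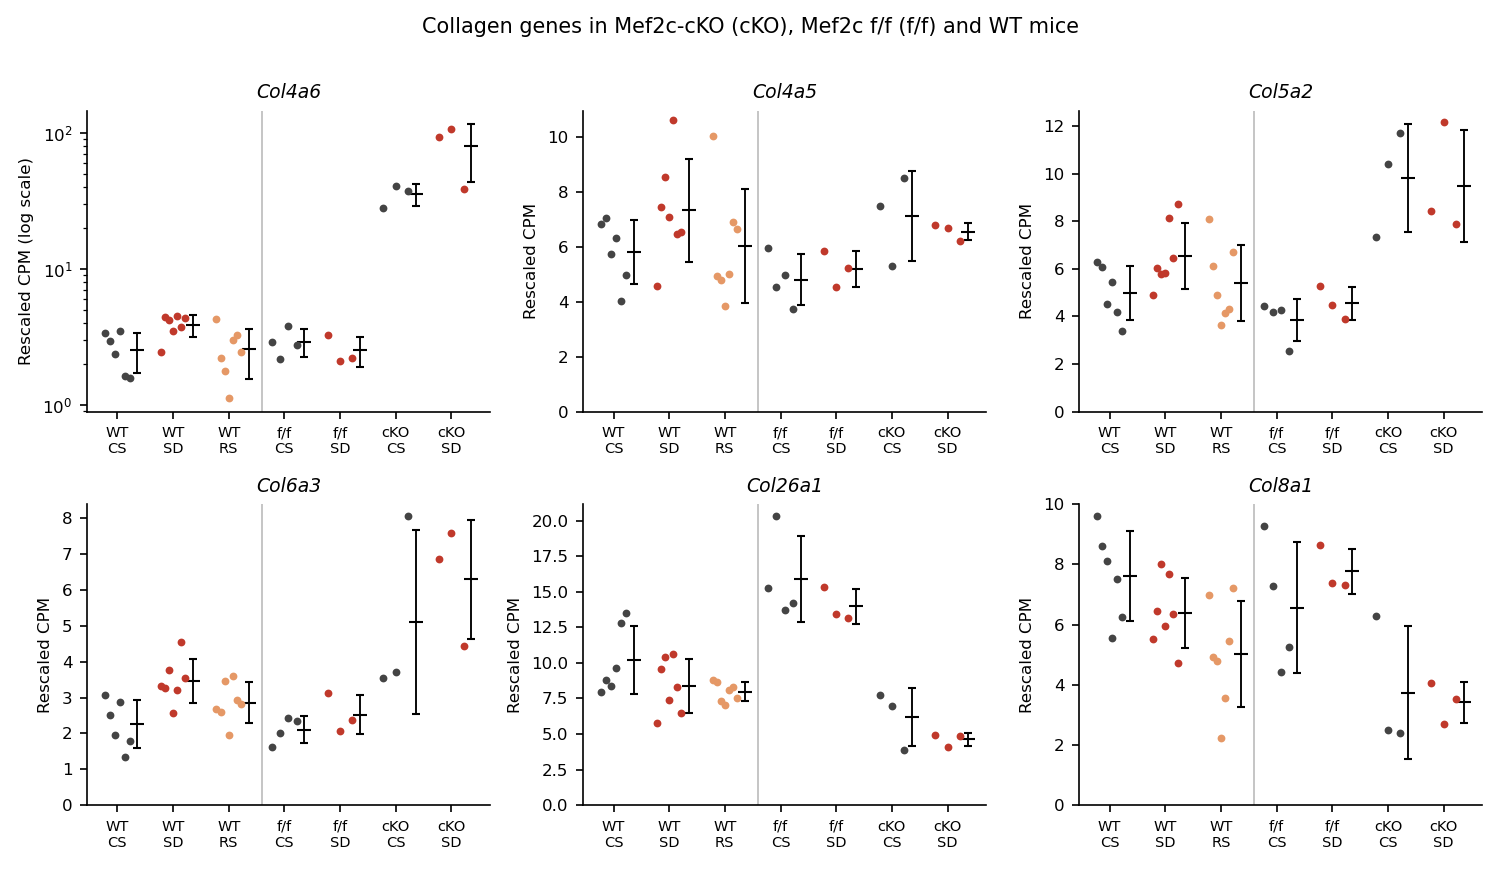
Rescaled CPM of Col4a6 (log axis) and of Col4a5, Col5a2, Col6a3, Col26a1 and Col8a1 (linear axes from 0) in each of the 33 libraries, by genotype and sleep group, with the mean and 1 SD per group. Col4a6 reads 27.9 to 107 in the 6 Mef2c-cKO libraries and 2.11 to 3.80 in the 7 Mef2c f/f libraries, while Col4a5 overlaps between Mef2c f/f and Mef2c-cKO in CS.

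The same 6 lists were followed by genotype. In CS 4 of 76 tested genes were called (5.26%), against 4.77% of all genes. They were Postn, a fibril partner (log2 1.10), Nid2, a linker of basement membranes (0.94), the integrin gene Itga11 (0.68) and Mmp15 (0.57), all higher. In SD 14 of 76 were called (18.4%), against 9.31% of all genes, and all were higher. Among them were Tll1, a propeptidase (6.67 against 31.7, log2 2.02), Nid2 (1.06), Hspg2, which encodes perlecan (1.05), Mmp14 (0.92), Adgrg1, a receptor of collagen III (0.84), Loxl1 (0.75), Colgalt2, a collagen galactosyltransferase (0.74), Timp2 (0.72), Bgn (0.68), Lamb1 (0.62), Nid1 (0.58), Adamts3 (0.54) and Plod1, a lysyl hydroxylase (0.48). Meningeal fibroblast markers were called for 0 of 18 by limma in CS and in SD, with 4 at an unadjusted p of 0.05 in each. That count of 4 stands without the share of all genes and was not read as a result. Their sums without Igf2 were 101 to 139 in Mef2c-cKO CS against 104 to 113 in Mef2c f/f CS, and 125 to 162 against 99.3 to 114 in SD. For other cell types some markers were called. In CS 3 of 9 oligodendrocyte markers were higher in Mef2c-cKO, with sums of 2497 to 3227 against 2013 to 2385. In SD 3 of 8 microglia markers were higher, with sums of 216 to 241 against 169 to 175, and 3 of 9 excitatory neuron markers were lower, with sums of 1748 to 1979 against 2185 to 2329. All 3 of these sums were apart between the genotypes in that state, as were the fibroblast sums in SD. Higher in Mef2c-cKO with no overlap were also inhibitory neuron sums (770 to 984 against 553 to 694 in CS, 798 to 1039 against 607 to 693 in SD). So were oligodendrocyte precursor sums (129 to 237 against 99.6 to 108 in CS, 134 to 157 against 117 to 130 in SD). Astrocyte sums in SD (4137 to 4520 against 4545 to 4862) and blood sums in CS (10.7 to 108 against 123 to 182) were lower with no overlap. The part of any of these in the collagen differences was not tested.

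Several members lie side by side in the genome, and neighbors did not always pass together. Col9a1 and Col19a1 end 9205 bases apart tail to tail, and in Mef2c-cKO CS the first was higher and the second lower. Col3a1 and Col5a2 were both higher there. Of Col6a1 and Col6a2, 85161 bases apart, only Col6a2 was called in WT SD, and their changes were not tested against each other. Col4a1 and Col4a2 overlap at their starts and were called in none of the comparisons above. Col4a3 and Col4a4 start 71 bases apart, and of these only Col4a3 was tested.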

How the data were processed

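RNA-seq was made from the frontal cortex of single mice. Per the study's methods, the authors built stranded mRNA libraries, trimmed reads with Trimmomatic, aligned them with STAR to mm10, counted uniquely mapped reads per gene with HTSeq and converted them with edgeR to the deposited CPM values; the strand setting and annotation release are not given in the sources used here. All 711645 values came to whole reads (within 0.01), which fed edgeR and DESeq2 as alternatives. Each library was rescaled by a median-of-ratios factor, taken over the 11570 genes that reached a CPM of 1 in every library. Genes with a mean CPM of at least 0.5 were tested with limma (trend, two-sided) on log2(rescaled CPM + 0.5), fitting the compared groups alone, with Benjamini-Hochberg adjustment over 13980 genes; interactions were called on adjusted p alone. GC content and length came from GENCODE M21 (94.8% of tested genes) and were removed by splines (5 and 4 degrees of freedom). The model was run on simulated data in which few genes changed, and not for the RS comparisons or for Mef2c-cKO against Mef2c f/f. That run does not check the calls given here. The text names all collagen genes, at most 4 called genes per list and comparison, and called fibroblast markers, other genes being named after their values were seen. The members and lists were chosen with earlier results of these data known. Versions were R 4.3.3, limma 3.58.1, edgeR 4.0.16, DESeq2 1.42.0, Python 3.11.15, pandas 2.3.3, numpy 2.4.6, scipy 1.17.1 and matplotlib 3.10.9.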

Additional observations from a re-analysis of the deposited data

Results flagged for a closer look

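In groups of 4 to 7 libraries, 12 of 164 combinations of a tested collagen gene and a group held a library far from the others, where chance flags about 1 in 20 (8.2). The value given is the gap to the nearest library over the whole range of the group. WT CS replicate 2 held Col6a4 at 0.283 rescaled CPM against 2.96 to 4.09 in the others (0.840), Col11a1 at 36.3 against 24.8 to 27.9 (0.697) and Col6a6 at 2.80 against 0.346 to 0.828 (0.668). WT CS replicate 1 held Col8a2 at 1.58 against 0.244 to 0.555 (0.660), and WT CS replicate 3 held Col24a1 at 9.60 against 12.1 to 13.8 (0.649). WT SD replicate 1 held Col4a6 at 2.45 against 3.48 to 4.47 (0.573) and Col6a6 at 1.07 against 0.354 to 0.610 (0.568). In WT RS, replicate 4 held Col12a1 at 10.8 against 20.5 to 27.9 (0.674), and replicate 1 held Col4a3 at 1.26 against 0.411 to 0.650 (0.646). In Mef2c f/f CS, replicate 3 held Col6a2 at 7.10 against 9.05 to 9.25 (0.917), replicate 2 held Col9a3 at 3.51 against 4.19 to 4.28 (0.898), and replicate 4 held Col5a2 at 2.56 against 4.19 to 4.43 (0.896). Groups of 3 libraries, both Mef2c-cKO groups among them, were not scanned. There, Mef2c-cKO CS replicate 8 held Col5a3 at 12.5 against 1.26 and 2.83, Col18a1 at 11.5 against 3.19 and 3.60, and Col20a1 at 11.8 against 3.56 and 4.10. Mef2c-cKO SD replicate 6 held Col5a3 at 14.1 against 1.78 and 1.93, and Col27a1 at 18.6 against 6.49 and 5.54. These were picked after their values were seen.

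The SD response differed between Mef2c f/f and WT mice, by the interaction in limma, for 8 members. The differences in log2 fold change were -1.44 for Col9a2, -1.28 for Col1a2, -0.97 for Col13a1, -0.84 for Col6a2, 0.55 for Col25a1, 0.58 for Col12a1, 0.78 for Col11a1 and 0.96 for Col19a1.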

How the results depend on the processing

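Of 999 repeats of the calls of single collagen genes under other settings, 748 gave the same call, 251 lost it and 0 changed sign. From CS to SD in WT, the count of 19 collagen DEGs was 16 to 22 without 1 library and 0 with the replicate number as a block, a fit that called 0 of all 13980 genes with 21 members at an unadjusted p of 0.05. The share of all genes at that p in the block fit is not given here. From CS to RS, the count of 3 was 6 on CPM as deposited (17.3% of all genes called), 0 with no filter on low values (0.209%), 10 by DESeq2 (24.8%), 8 with the replicate block (30.8%), and 0 to 7 without 1 library. It was 0 without WT CS replicate 1, 2 or 3 or WT RS replicate 3, 4, 5, 6 or 12, and 5, 7 and 5 without WT CS replicate 4 and WT RS replicates 1 and 2. From SD to RS, 3 were called by DESeq2 (0.422%). For Mef2c-cKO against Mef2c f/f in CS, the count of 8 was 5 with no filter (2.13% of all genes), 16 by DESeq2 (15.5%), 14 with the GC content and length trend removed (10.8%), 2 to 6 without 1 library (2 without Mef2c f/f replicate 2, 3 without Mef2c-cKO replicate 5 or 7, 4 without Mef2c-cKO replicate 8 or Mef2c f/f replicate 4) and 0 without Mef2c-cKO replicates 5 and 8, chosen after seeing the data, which leaves 1 library assumed to vary like the others. In SD, the count of 10 was 18 by DESeq2 (16.7%) and 2 to 11 without 1 library, with 2, 3 and 4 without Mef2c f/f replicates 3, 2 and 1 and 6 and 4 without Mef2c-cKO replicates 5 and 7. For the SD response of Mef2c f/f minus WT, the count of 8 was 3 with no filter (3.36%), 5 by edgeR (11.02%), 1 with the trend removed (2.13%), 0 with the block and 0 to 9 without 1 library. The causes were not tested. All other counts stayed within 1.5 times of those reported. From CS to RS the count of 3 was kept with the trend removed, but as 0 higher and 3 lower, with the rises of Col9a2 and Col6a2 lost. Replicate numbers were not taken to pair the samples, since the deviations of same-numbered libraries correlated from -0.70 to 0.61 and in no comparison did every pair exceed 0.1 (12 of 21 pairs did). From CS to RS, 5 of 6 pairs exceeded it and the lowest was 0.056, a hint of pairing from the data and not from the design. No paired analysis was possible for Mef2c-cKO against Mef2c f/f because those groups share no pair of numbers.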
